A study of Homo sapiens with 4 samples.

Results

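Complex I (NADH:ubiquinone oxidoreductase) is built from proteins of 2 genomes, and the transcripts of both were followed here in HEK293T cells in which RPRD1B had been targeted. The members were the protein-coding genes outside chromosome X whose symbols begin with NDUFA, NDUFB, NDUFC, NDUFS or NDUFV plus a number, with NDUFAF plus a number or with MT-ND, and NDUFAB1. This gave 53 genes of the 69222 gene identifiers counted, 46 nuclear and 7 mitochondrially encoded. The nuclear genes comprised 35 subunits (7 core and 28 accessory), 8 assembly factors and 3 genes that share the symbol pattern without encoding a complex I subunit. NDUFA1 and NDUFB11, on chromosome X, were left out by this choice, as were pseudogenes and antisense RNAs. Of the 53, 50 had enough counts to be tested, and NDUFS3, NDUFA6 and NDUFC2-KCTD14 had not.

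The shRPRD1B group was 2 libraries of HEK293T cells that had received, by lentivirus, a short hairpin RNA against RPRD1B. The shCtrl group was 2 libraries of the same line that had received a control hairpin by the same route. HEK293T is a human embryonic kidney line that is easily transfected, and RPRD1B is a protein that binds the C-terminal domain of RNA polymerase II. No time after transduction, selection step or hairpin sequence was used here, and both groups carry a lentivirus. Whether replicates came from separate cultures is not stated in the labels, so the spread behind the p-values may be technical.

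Complex I oxidises NADH, passes the electrons along a chain of iron-sulphur clusters to ubiquinone and pumps protons across the inner mitochondrial membrane. Its matrix arm holds the N module, which binds NADH, and the Q module, which binds ubiquinone, while its membrane arm holds the proton channels. The core of the matrix arm is nuclear-encoded and the core of the membrane arm is encoded by the mitochondrial MT-ND genes, so the enzyme needs RNA from both genomes, together with accessory subunits and dedicated assembly factors.

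Reads were counted per gene after selection of poly(A) RNA, with totals of 65572391 and 54722140 counts in shRPRD1B 1 and 2 and of 47732913 and 48494258 in shCtrl 1 and 2. Levels are given as CPM, that is, after division by library size multiplied by a normalization factor (TMM). The knockdown libraries stood further from each other than the control libraries: over 20319 genes, the SD of the log2 ratio of one library to the other was 0.674 in shRPRD1B and 0.531 in shCtrl. RPRD1B itself was at 27.2 and 35.5 CPM in shRPRD1B 1 and 2, against 50.4 and 50.1 CPM in shCtrl 1 and 2, which is the direction its labels give (log2 fold change -0.68 ± 0.16 SE, edgeR quasi-likelihood adjusted p = 0.448). All 9 HEK293T marker genes examined stood at 1 CPM or more in every library, with sums of 679 and 562 CPM in shRPRD1B and of 689 and 668 CPM in shCtrl. Among fibroblast and myocyte markers, COL1A1 and ACTN2 reached 1 CPM in every library, and COL1A2 and TNNT2 had 0 counts. The summed leukocyte markers stood at 4.17 and 2.54 CPM in shRPRD1B, against 4.18 and 4.19 CPM in shCtrl.

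No complex I gene passed the test between the groups, and the transcripts of both genomes differed more between the knockdown libraries than the group means did. With edgeR's quasi-likelihood test, Benjamini-Hochberg adjusted over all genes at a threshold of 0.05, 0 of 50 tested members were called, against 14 of 20319 genes (0.0689%), of which 8 were lower (0.0394%) and 6 higher (0.0295%). DESeq2 called 0 members as well, against 216 of 19562 genes (1.1%), and limma voom called 0 members and 0 genes. At an unadjusted edgeR p under 0.05 there were 3 members, where 7.49% of all genes were under it. All 3 were lower in shRPRD1B (3.94% of all genes were) and 0 were higher (3.55% of all genes). These 3 were NDUFAF1, NDUFB10 and NDUFA4L2. They were also the 3 members with an unadjusted limma voom p under 0.05, where 7.19% of all genes were under it. The knockdown libraries lay below both control libraries for 21 of 50 members (20.6% of all genes did) and above both for 0 members (20.3% of all genes). In the nuclear genome that count was 20 of 43 tested members, or 46.5%, and among the MT-ND mRNAs it was 1 of 7.

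The knockdown libraries did not move together. In shRPRD1B 1, the 33 tested nuclear subunits had a median of -0.03 on the log2 scale relative to the shCtrl mean, and the MT-ND mRNAs a median of -0.32. In shRPRD1B 2 the same medians were -0.36 and 0.49. The nuclear subunits of shRPRD1B 1 thus stood near control and its mitochondrial mRNAs below it, while shRPRD1B 2 had nuclear subunits below control and mitochondrial mRNAs above it. The median over all 20319 genes tested was 0.00 in each knockdown library. In bulk RNA, fewer cells that express a gene and less RNA per cell cannot be told apart.

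The MT-ND genes encode the hydrophobic core of the membrane arm. Their mRNAs are cut from long polycistronic RNAs of the mitochondrial genome, and most of them have little untranslated sequence. The last 24 bases of each gene are shown because several genes end inside the stop codon, which only the poly(A) tail completes, and poly(A) selection was used for these libraries. MT-ND4L lies in 1 mRNA with MT-ND4, so its end is a coding end only. The other ends shown are those of the annotated genes, and whether each mRNA ends there was not examined. The sequences are from GENCODE 29 transcripts on chromosome M of GRCh38, 5′ to 3′, with the encoded stop codon bases in capitals.
MT-ND1 (chrM:4239-4262, plus strand): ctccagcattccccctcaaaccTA
MT-ND2 (chrM:5488-5511, plus strand): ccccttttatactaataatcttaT
MT-ND3 (chrM:10381-10404, plus strand): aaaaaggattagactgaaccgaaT
MT-ND4L (chrM:10743-10766, plus strand): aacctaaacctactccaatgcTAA
MT-ND4 (chrM:12114-12137, plus strand): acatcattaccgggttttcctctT
MT-ND5 (chrM:14125-14148, plus strand): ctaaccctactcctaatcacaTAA
MT-ND6 (chrM:14149-14172, minus strand): attgagattgctcgggggaatAGG

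MT-ND1, which borders the ubiquinone channel, stood at 708 and 1565 CPM in shRPRD1B 1 and 2, against 896 and 925 CPM in shCtrl 1 and 2. The control values were close together, and the knockdown values lay on either side of them, a 2.21-fold difference between libraries of 1 group. MT-ND1 had the widest such gap of the mitochondrial mRNAs of complex I (log2 fold change 0.32 ± 0.35 SE, edgeR adjusted p = 0.818).

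The antiporter-like subunits ND2, ND4 and ND5 each hold a proton channel. MT-ND2 was at 925 and 1716 CPM in shRPRD1B, against 1224 and 1314 CPM in shCtrl. MT-ND4, the most abundant of them, was at 2276 and 4047 CPM in shRPRD1B, against 2764 and 2823 CPM in shCtrl. MT-ND5 was at 1434 and 2506 CPM in shRPRD1B, against 1721 and 1840 CPM in shCtrl. In all of these shRPRD1B 1 was the lowest of the libraries and shRPRD1B 2 the highest, so the groups overlapped. Their log2 fold changes were 0.06 ± 0.28, 0.18 ± 0.27 and 0.15 ± 0.26 (SE, edgeR adjusted p = 0.967, 0.869 and 0.893). Counts of nuclear pseudogenes named after MT-ND2 amounted to 6.27% of its own counts, and for the other MT-ND genes to at most 0.0828%.

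The small subunits ND3, ND4L and ND6 sit where the matrix arm meets the membrane arm. MT-ND4L was at 209 and 408 CPM in shRPRD1B, against 245 and 277 CPM in shCtrl. It shares 7 bases with MT-ND4, with which it forms 1 mRNA. MT-ND6, the only MT-ND gene on the light strand, was at 409 and 596 CPM in shRPRD1B, against 468 and 486 CPM in shCtrl. Its mRNA is known to lack a long poly(A) tail, and the strand setting of the counting is not given in the sources used here, so reads from the opposite strand cannot be told apart from its own. Both had the same order of libraries as MT-ND1, with log2 fold changes of 0.24 ± 0.31 and 0.07 ± 0.19 (SE, edgeR adjusted p = 0.841 and 0.93).

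MT-ND3 was the exception. It stood at 472 and 592 CPM in shRPRD1B, against 656 and 651 CPM in shCtrl, so both knockdown libraries were below both control libraries. Its log2 fold change was -0.30 ± 0.14 (SE), with an unadjusted p of 0.0845 and an edgeR adjusted p of 0.696. Like the other MT-ND mRNAs it was higher in shRPRD1B 2 than in shRPRD1B 1, and its ratio of 1.25 between those libraries was the smallest of the 7. All 7 were higher in shRPRD1B 2 than in shRPRD1B 1, all 7 lay below the shCtrl mean in shRPRD1B 1, and 1 did in shRPRD1B 2.

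**Figure D1:**
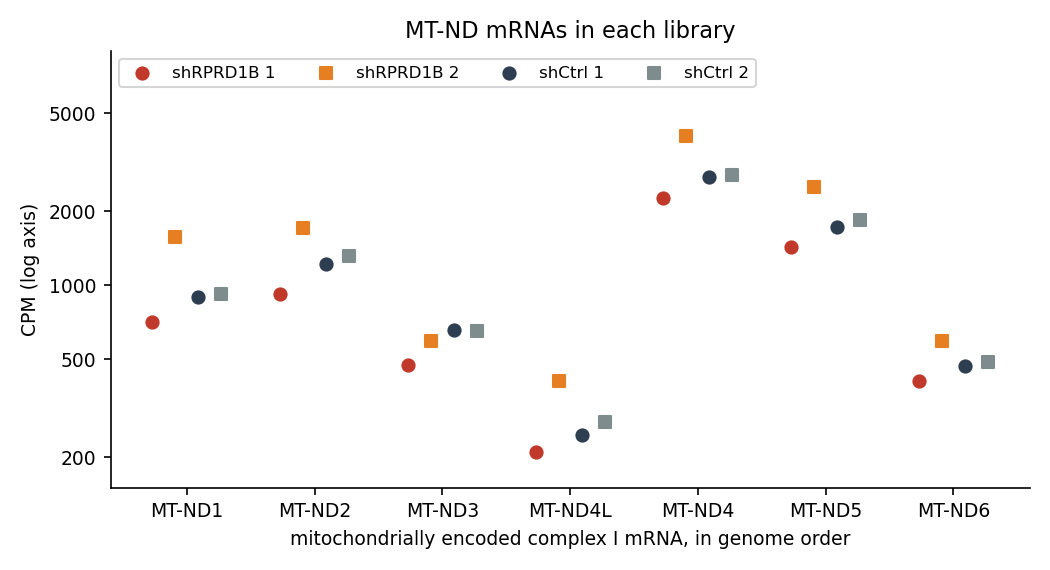
Levels of the 7 MT-ND mRNAs in CPM (log axis) in genome order, 1 point per library, knockdown libraries left of control libraries. shRPRD1B 1 is the lowest point of each gene and shRPRD1B 2 the highest of each except MT-ND3, where it reaches 592 CPM and the shCtrl libraries 656 and 651 CPM.

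Summed over both genomes, the balance of complex I mRNAs differed between the knockdown libraries by more than between either of them and control. The MT-ND mRNAs summed to 6433 and 11430 CPM in shRPRD1B 1 and 2, against 7975 and 8315 CPM in shCtrl 1 and 2. The nuclear subunit mRNAs summed to 3149 and 2456 CPM in shRPRD1B 1 and 2, against 3327 and 3148 CPM in shCtrl 1 and 2. The MT-ND sum was therefore 2.04 and 4.65 times the nuclear sum in shRPRD1B, against 2.4 and 2.64 times in shCtrl. The control ratios lay between the knockdown ratios. The difference between the median log2 deviations of MT-ND and nuclear subunits was -0.29 and 0.85 in shRPRD1B, against -0.06 and 0.06 in shCtrl. With 2 libraries against 2, the smallest two-sided p of an exact permutation test is 0.33, so no such test was made.

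The core of the N module takes electrons from NADH. NDUFV1 (ENSG00000167792.13, chr11:67605653-67612554 in GRCh38, plus strand), which carries the flavin and binds NADH, was at 257 and 204 CPM in shRPRD1B, against 295 and 279 CPM in shCtrl. Both knockdown libraries were below both control libraries, and the change did not pass the test (log2 fold change -0.32 ± 0.14 SE, edgeR adjusted p = 0.685). NDUFS1, the largest subunit and a carrier of iron-sulphur clusters, was at 50.9 and 3.06 CPM in shRPRD1B, against 5.30 and 23.2 CPM in shCtrl. Its libraries differed more within each group than those of any other tested member, and no direction can be read from it (0.93 ± 1.39 SE, edgeR adjusted p = 0.872). NDUFV2, an iron-sulphur subunit, was at 0.580 and 0.657 CPM in shRPRD1B, against 0.528 and 0.658 CPM in shCtrl, 38, 36, 25 and 32 counts in that order.

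The core of the Q module hands the electrons to ubiquinone. NDUFS7, which lines the ubiquinone site, was at 31.8 and 26 CPM in shRPRD1B, against 34.5 and 31.8 CPM in shCtrl. NDUFS8, the ferredoxin-like subunit, was at 261 and 177 CPM in shRPRD1B, against 252 and 233 CPM in shCtrl. For NDUFS7 shRPRD1B 1 was level with shCtrl 2 at the printed precision and shRPRD1B 2 was lower, and for NDUFS8 the groups overlapped. The log2 fold changes were -0.20 ± 0.15 and -0.14 ± 0.20 (SE, edgeR adjusted p = 0.756 and 0.851). NDUFS3, a Q module core subunit, had 6 and 15 counts in shRPRD1B, against 0 and 3 counts in shCtrl, and was not tested.

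The 6 core subunits tested had a median log2 fold change of -0.14, with 2 positive and 4 negative, beside a median of 0.00 over all genes. The positive ones were NDUFS1, whose libraries disagreed, and NDUFV2, with few counts. Their median deviation from the shCtrl mean was -0.04 in shRPRD1B 1 and -0.40 in shRPRD1B 2.

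The accessory subunits surround the core, and most are needed for the enzyme to assemble. Of the 27 tested, 25 had a negative log2 fold change and 2 a positive one, with a median of -0.19, where 49.5% of all genes tested were negative. None was called, and the direction came from shRPRD1B 2: 25 of 27 lay below the shCtrl mean there, against 15 of 27 in shRPRD1B 1. Both knockdown libraries were below both control libraries for 12 of 27 (44.4%, against 20.6% of all genes) and above both for 0 (20.3% of all genes).

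The distal end of the membrane arm, the ND4 and ND5 side, holds the NDUFB subunits. All 10 had negative log2 fold changes, with a median of -0.22, and all 10 were lower in shRPRD1B 2 than in shRPRD1B 1. NDUFB10 (ENSG00000140990.15, chr16:1959508-1961975 in GRCh38, plus strand), a subunit of the intermembrane space side, was at 268 and 234 CPM in shRPRD1B, against 348 and 320 CPM in shCtrl. The groups did not overlap, with means of 251 ± 24 CPM in shRPRD1B and 334 ± 19.8 CPM in shCtrl (SD, n = 2 each). It had the smallest p of the subunits (log2 fold change -0.41 ± 0.12 SE, 95% interval -0.72 to -0.11, unadjusted p = 0.0164, edgeR adjusted p = 0.577).

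NDUFB1, a short membrane-spanning subunit, was at 47.7 and 33.9 CPM in shRPRD1B, against 54.5 and 54.9 CPM in shCtrl. Its knockdown libraries were both lower, and shRPRD1B 2 the lower of them (-0.42 ± 0.18 SE, edgeR adjusted p = 0.681). NDUFB7, which has the twin-cysteine fold of intermembrane space proteins, was at 198 and 105 CPM in shRPRD1B, against 213 and 182 CPM in shCtrl. It had the largest gap between the knockdown libraries of any nuclear subunit of 5 CPM or more apart from NDUFS1, and it was named after its values were seen (-0.38 ± 0.30 SE, edgeR adjusted p = 0.76).

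The N module accessory subunits had a median of -0.20, with 5 of 6 negative. NDUFS4, whose loss causes Leigh syndrome in patients and a model of it in mice, was at 33.5 and 25.5 CPM in shRPRD1B, against 35.4 and 37.1 CPM in shCtrl (-0.30 ± 0.17 SE, edgeR adjusted p = 0.714). Both knockdown libraries were below both controls. NDUFAB1, the mitochondrial acyl carrier protein, is present in both the N module and the distal arm, and was at 158 and 120 CPM in shRPRD1B, against 171 and 172 CPM in shCtrl (-0.30 ± 0.16 SE, edgeR adjusted p = 0.704). Again the groups did not overlap, and shRPRD1B 2 was the lower.

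The 8 accessory subunits of the proximal membrane arm, on the ND1 and ND2 side, were all negative, with a median of -0.15. Those under 5 CPM gave both ends of the range, NDUFA3 at -0.48 and NDUFA13 at -0.02, and the others lay between -0.25 and -0.08. The accessory subunits with positive values were NDUFA9 and NDUFA7. NDUFA9, a nucleotide-binding subunit at the junction of the arms, was at 20.2 and 19.3 CPM in shRPRD1B, against 20.2 and 17.9 CPM in shCtrl (0.05 ± 0.14 SE). NDUFA7 was at 0.824 and 0.930 CPM in shRPRD1B, against 0.844 and 0.884 CPM in shCtrl (0.02 ± 0.31 SE). In both the groups overlapped, and their edgeR adjusted p were 0.932 and 0.993.

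**Figure D2:**
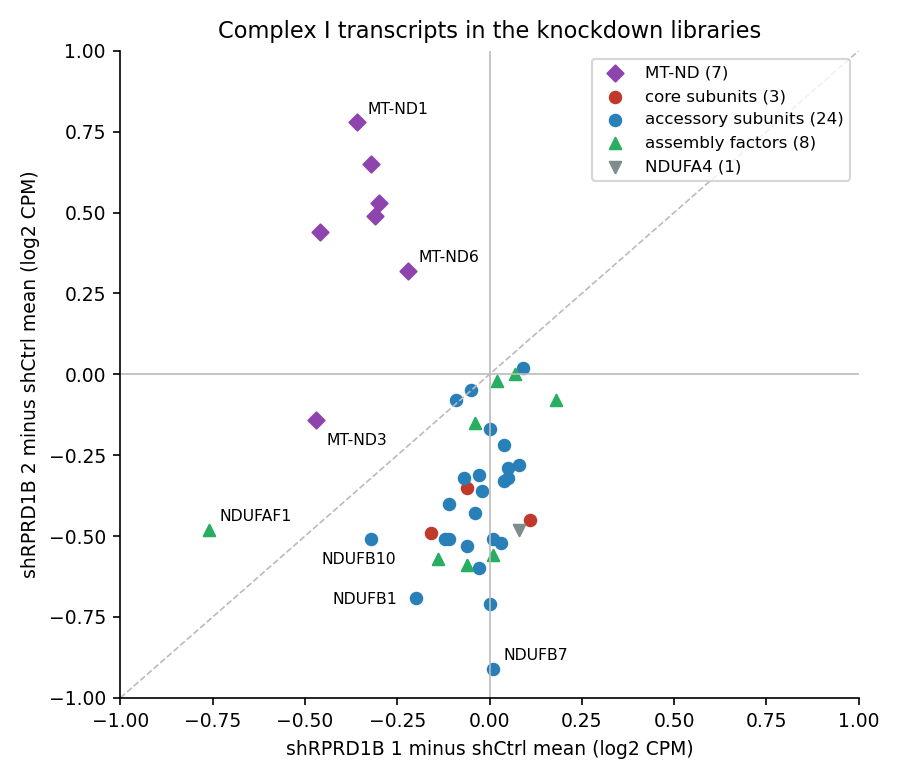
Each point is 1 gene, with its log2 CPM in shRPRD1B 1 (x axis) and in shRPRD1B 2 (y axis), both minus the shCtrl mean, for 43 of the 45 tested members of at least 5 CPM on average. NDUFS1 is among those not drawn. The MT-ND mRNAs other than MT-ND3 lie upper left, and most nuclear subunits below 0 on the y axis near 0 on the x axis. MT-ND3 and many nuclear members, among them NDUFAF1, NDUFB10, NDUFB1 and NDUFV1, lie below 0 on both axes.

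Assembly factors act on the growing enzyme and are absent from the finished one. Of the 8 NDUFAF genes tested, 5 were negative and 3 positive, with a median log2 fold change of -0.17 and none called. NDUFAF1 (ENSG00000137806.10, chr15:41387349-41402519 in GRCh38, minus strand), part of the membrane arm assembly complex with ECSIT, ACAD9 and TMEM126B, was at 15.5 and 19.0 CPM in shRPRD1B, against 26.7 and 26.1 CPM in shCtrl. The groups did not overlap, and the knockdown mean was 0.654 times the control mean. NDUFAF1 had the smallest p of all members (log2 fold change -0.61 ± 0.15 SE, 95% interval -0.99 to -0.24, unadjusted p = 0.00768) and did not pass (edgeR adjusted p = 0.485, DESeq2 adjusted p = 0.158). Unlike most nuclear members it was lower in shRPRD1B 1 than in shRPRD1B 2.

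NDUFAF1 has 1 copy of ACTAGC in its 3′ UTR, a word that an earlier analysis of these data had picked out, which is why its site is shown. The word is in capitals at position 38 of the 95-base 3′ UTR of its GENCODE 29 transcript, in a window of 30 bases.
NDUFAF1 3′ UTR site: taatctaagggtACTAGCatctacaatgat
The word was in the 3′ UTR of 4 of 43 tested members (9.3%), NDUFAF7, NDUFAF4, NDUFA9 and NDUFAF1, against 14.4% of 13969 tested genes with a 3′ UTR. Of these 4, NDUFAF4 and NDUFAF1 had both knockdown libraries below both controls, as 20.6% of all genes did, and none was called.

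NDUFAF3 and NDUFAF4 work together on the Q module. NDUFAF3 was at 147 and 109 CPM in shRPRD1B, against 168 and 155 CPM in shCtrl (-0.34 ± 0.17 SE, edgeR adjusted p = 0.696). NDUFAF4 was at 55.6 and 51.6 CPM in shRPRD1B, against 57.6 and 56.8 CPM in shCtrl (-0.09 ± 0.11 SE, edgeR adjusted p = 0.837). For both the knockdown libraries were below the controls, by little for NDUFAF4. NDUFAF2, a paralogue of NDUFA12 that holds its place until the N module is added, was at 50.3 and 34.9 CPM in shRPRD1B, against 53.0 and 51.9 CPM in shCtrl (-0.30 ± 0.19 SE, edgeR adjusted p = 0.731). Its knockdown values too were both below both controls.

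NDUFAF5 hydroxylates NDUFS7, with NDUFAF8 as its partner, and NDUFAF7 is a protein methyltransferase. NDUFAF8 was at 142 and 96.1 CPM in shRPRD1B, against 145 and 138 CPM in shCtrl (-0.25 ± 0.20 SE, edgeR adjusted p = 0.766). NDUFAF5 was at 23.6 and 23 CPM in shRPRD1B, against 22.7 and 23.9 CPM in shCtrl (0.00 ± 0.13 SE, edgeR adjusted p = 1). NDUFAF7 was at 26.8 and 25.5 CPM in shRPRD1B, against 24.7 and 26.3 CPM in shCtrl (0.04 ± 0.13 SE, edgeR adjusted p = 0.949). NDUFAF8 was thus low in shRPRD1B 2 alone, and NDUFAF5 and NDUFAF7 overlapped between groups. NDUFAF6, needed for early steps around ND1, was at 28.9 and 24.3 CPM in shRPRD1B, against 25.8 and 25.4 CPM in shCtrl, with shRPRD1B 1 the highest (0.06 ± 0.14 SE, edgeR adjusted p = 0.93).

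The symbol pattern also takes in 3 genes that encode no complex I subunit. NDUFA4, now counted as a subunit of complex IV, was at 187 and 127 CPM in shRPRD1B, against 176 and 176 CPM in shCtrl (-0.17 ± 0.19 SE, edgeR adjusted p = 0.828), so shRPRD1B 2 was low and shRPRD1B 1 high. NDUFA4L2, its hypoxia-inducible paralogue, was at 0.702 and 0.274 CPM in shRPRD1B, against 1.06 and 1.25 CPM in shCtrl, from 46, 15, 50 and 61 counts (-1.20 ± 0.47 SE, edgeR adjusted p = 0.66). Both knockdown libraries were below both controls, at very low counts. The readthrough gene NDUFC2-KCTD14 had 0 counts in every library.

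In 8 members every library was under 5 CPM: NDUFS3, NDUFV2, NDUFA3, NDUFA6, NDUFA7, NDUFA13, NDUFA4L2 and NDUFC2-KCTD14. NDUFA13 was the highest of them, at 4.62 and 3.32 CPM in shRPRD1B, against 3.67 and 4.44 CPM in shCtrl. NDUFA3 was at 0.549 and 0.493 CPM in shRPRD1B, against 0.760 and 0.699 CPM in shCtrl. NDUFA6 had 0 and 2 counts in shRPRD1B, against 1 and 1 counts in shCtrl. NDUFS3 and NDUFV2 are known as essential core subunits, so counts this low may not be levels of the transcripts, and the values of all 8 rest on few reads. All 8 share exon bases with another gene in GENCODE 29, as do 27 of the 53 members, and the shared part was as small as 1.18% of exon bases in NDUFA4L2 and 1.77% in NDUFA6. NDUFS7, with 49.1% shared, and NDUFB8, with 48.5%, stood above 5 CPM in every library. How reads in shared exons were counted is not given in the sources used here, and the part of sharing in the low counts was not tested.

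Per length of the reference transcript, the mitochondrial mRNAs stood above every nuclear one. Length-scaled levels are in TPM, computed from the counts and scaled to the same total in each library. MT-ND4 led with 5080 ± 2302 TPM in shRPRD1B and 4210 ± 154 TPM in shCtrl (SD, n = 2 each). MT-ND4L was last of the MT-ND genes in shCtrl, at 2306 ± 1180 TPM in shRPRD1B and 1827 ± 197 TPM in shCtrl. These genes lie on the same mRNA, so the order of length-scaled values among MT-ND genes does not rank mRNA levels. NDUFB10, the most abundant nuclear subunit in shCtrl, was at 775 ± 25.7 TPM in shRPRD1B and 983 ± 36.9 TPM in shCtrl. NDUFS5, a proximal arm subunit, was next in shCtrl with 825 ± 101 TPM in shRPRD1B and 865 ± 9.98 TPM in shCtrl, so that their order differed between the groups by less than the knockdown spread. Leaving out the 8 members of low counts and NDUFS1, the lowest nuclear subunit was NDUFA9, at 5.16 ± 0.144 TPM in shRPRD1B and 4.73 ± 0.301 TPM in shCtrl. Assembly factor mRNAs ran from NDUFAF8, at 420 ± 89 TPM in shRPRD1B and 477 ± 6.98 TPM in shCtrl, to NDUFAF5, at 9.21 ± 0.408 TPM in shRPRD1B and 8.76 ± 0.528 TPM in shCtrl. The low places of NDUFA9 and NDUFAF5 depend on their long reference transcripts, of 8363 and 5529 bases. In CPM, NDUFA9 had means of 19.8 in shRPRD1B and 19 in shCtrl. Those of NDUFB8, with a reference transcript of 671 bases, were 15.2 and 18.9 CPM. Which transcripts the cells use was not examined.

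**Figure D3:**
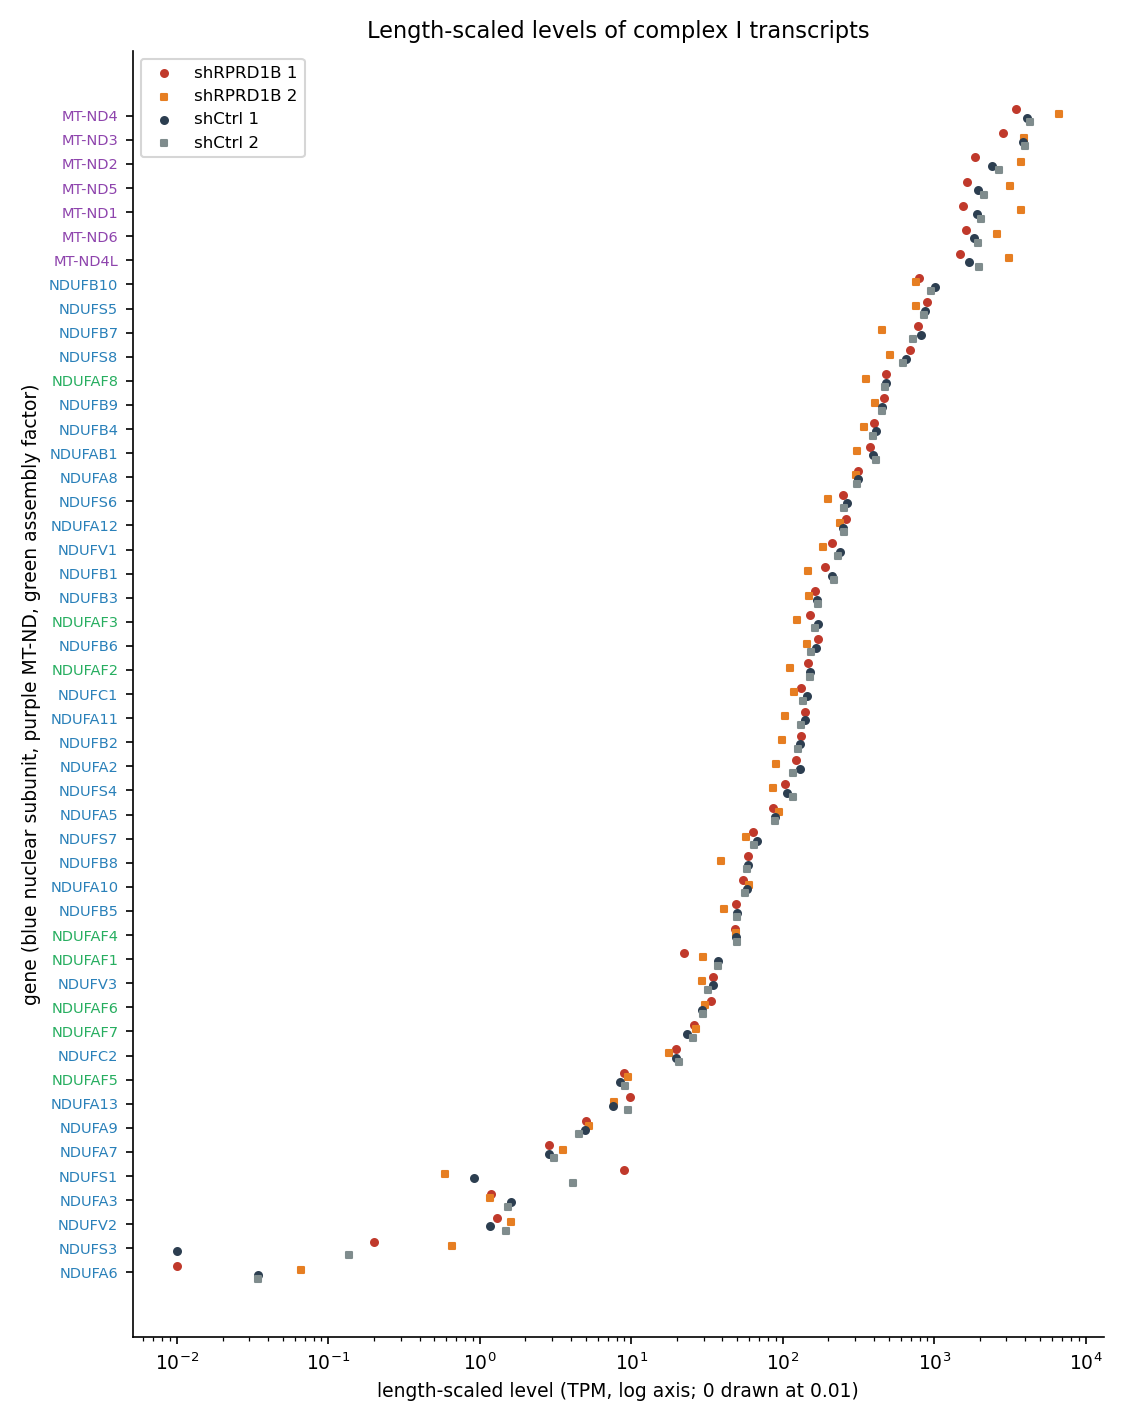
Length-scaled levels (TPM, log axis) of 41 complex I subunits and 8 NDUFAF assembly factors, 1 point per library, ordered by the shCtrl mean. MT-ND mRNAs lie at the top, above 1000 TPM in every library, and the subunits of very low counts lie at the bottom, with values of 0 drawn at 0.01.

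Complex I mRNAs of the nucleus are short, and transcript length moved with level in shRPRD1B 2. The protein-coding genes tested were split by reference transcript length into 5 classes of about equal size. Their median deviation from the shCtrl mean in shRPRD1B 2 was -0.23 in the shortest class (207 to 1853 bases), then -0.05, 0.02 and 0.13, and 0.21 in the longest (5501 to 101518 bases). In shRPRD1B 1 all classes lay between -0.00 and 0.02. The shortest class held 25 of the 33 tested nuclear subunits, whose median was -0.02 in shRPRD1B 1 and -0.43 in shRPRD1B 2. The nuclear subunits of that class were further below control in shRPRD1B 2 than the class as a whole, a difference that was not tested. Lengths were not matched within the class, and the 33 tested nuclear subunits had a median length of 930 bases. The annotated lengths of the 7 MT-ND genes also fall within 207 to 1853 bases, and their median in shRPRD1B 2 was 0.49. MT-ND4L and MT-ND4 share 1 mRNA, so gene length is not mRNA length for them. Whether length acts alike on mRNAs of both genomes was not tested. In a fit that corrected each library for transcript length and GC content, 24 of 33 nuclear subunits were negative, with medians of -0.03 for core subunits, -0.14 for accessory subunits and 0.20 for MT-ND, and none was called. Negative values that shrank by over 1.5 times in that fit included NDUFB10 (to -0.27), NDUFS4 (to -0.18), NDUFS7 (to -0.05) and NDUFS8 (to -0.01). The same held for NDUFAF2 (to -0.19), NDUFAF8 (to -0.12) and MT-ND3 (to -0.19). Positive values that grew by over 1.5 times included MT-ND2 (to 0.16), MT-ND6 (to 0.20) and NDUFV2 (to 0.15). So did NDUFA7 (to 0.15), NDUFAF6 (to 0.12) and NDUFAF7 (to 0.08). NDUFA9, NDUFA13 and NDUFAF5 changed sign. The part of length in these values was not tested further.

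**Figure D4:**
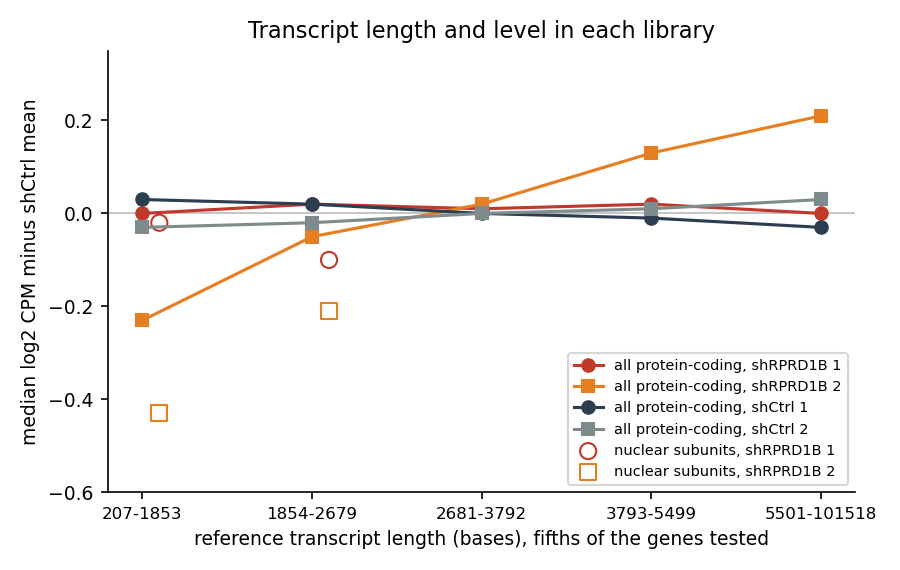
Median log2 CPM minus the shCtrl mean in each library (lines) for protein-coding genes in 5 classes of reference transcript length, with open symbols for the nuclear complex I subunits in the classes that hold at least 4 of them. The shRPRD1B 2 line slopes, between -0.23 and 0.21, and in the shortest class the nuclear subunits of that library lie below it at -0.43.

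The other respiratory chain genes of the nucleus are given beside complex I by their counts and medians, and none was called. The lists had been drawn up with earlier results of these data known. Complex II, succinate dehydrogenase and its assembly factors, had a median log2 fold change of -0.18 with 8 of 8 negative, and medians of -0.04 in shRPRD1B 1 and -0.36 in shRPRD1B 2. Complex III had 13 of 15 negative (median -0.17), complex IV 19 of 25 (median -0.17) and complex V, the ATP synthase, 19 of 20 (median -0.12). In all of these the median in shRPRD1B 2 was the lower, between -0.36 and -0.24, and the median in shRPRD1B 1 lay between -0.08 and -0.03.

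Examples with the smallest p in each list follow. SDHD, the membrane anchor of complex II, was at 58.1 and 52.3 CPM in shRPRD1B, against 66.3 and 68.1 CPM in shCtrl (-0.28 ± 0.12 SE, edgeR adjusted p = 0.677). UQCR11, a small subunit of complex III, was at 55.8 and 43.4 CPM in shRPRD1B, against 64.8 and 62.5 CPM in shCtrl (-0.36 ± 0.15 SE, edgeR adjusted p = 0.679). COX17, the copper chaperone of complex IV, was at 47.6 and 32.8 CPM in shRPRD1B, against 53.0 and 54.0 CPM in shCtrl (-0.41 ± 0.19 SE, edgeR adjusted p = 0.69). The groups did not overlap for any of them. ATP5PD, of the ATP synthase stalk, likewise had both knockdown libraries below both controls, with 59.6 and 43.2 CPM in shRPRD1B, against 69.6 and 67.8 CPM in shCtrl (-0.42 ± 0.18 SE, edgeR adjusted p = 0.677). UQCRC2, a core subunit of complex III named after its values were seen, had the largest value of these lists (2.72 ± 1.34 SE, edgeR adjusted p = 0.705), from 20.8 and 1.44 CPM in shRPRD1B, against 1.65 and 1.77 CPM in shCtrl. It was high in shRPRD1B 1 alone.

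Of the complex I assembly factors outside the NDUFAF symbols, 9 of 13 were negative, with a median of -0.08 and a median of -0.06 in each knockdown library. TMEM126B, the partner of NDUFAF1, was at 60.5 and 49.8 CPM in shRPRD1B, against 66.8 and 63.3 CPM in shCtrl (-0.24 ± 0.14 SE, edgeR adjusted p = 0.716). Its groups did not overlap.

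The mitochondrially encoded mRNAs of the other complexes had the order of the MT-ND mRNAs, with smaller differences. The 6 had medians of -0.18 in shRPRD1B 1 and 0.29 in shRPRD1B 2, and all 6 were higher in shRPRD1B 2 than in shRPRD1B 1. MT-CO1, the catalytic subunit of complex IV, was at 6394 and 8050 CPM in shRPRD1B, against 4937 and 5120 CPM in shCtrl. It was above control in both knockdown libraries, unlike any MT-ND mRNA. It was the only gene of these lists with an unadjusted p under 0.05, and it did not pass (0.52 ± 0.15 SE, edgeR adjusted p = 0.577). MT-CYB, the complex III subunit of that genome, was at 1678 and 2594 CPM in shRPRD1B, against 1786 and 1798 CPM in shCtrl (0.25 ± 0.22 SE, edgeR adjusted p = 0.778). The ribosomal RNAs of the same genome were looked at after these values had been seen. MT-RNR1, of the small ribosomal subunit, was at 504 and 473 CPM in shRPRD1B, against 573 and 585 CPM in shCtrl, below both controls in both libraries (-0.25 ± 0.11 SE, edgeR adjusted p = 0.682). MT-RNR2, of the large subunit, was at 2305 and 2409 CPM in shRPRD1B, against 2322 and 2442 CPM in shCtrl, and its groups overlapped (-0.02 ± 0.11 SE, edgeR adjusted p = 0.978).

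Genes that act on mitochondrial RNA or on nuclear respiratory genes completed the lists. The 29 tested genes of mitochondrial transcription and mRNA stability had a median of -0.04, with 18 negative and 11 positive, and medians of -0.06 in shRPRD1B 1 and 0.04 in shRPRD1B 2. FASTK, an RNA-binding protein of which a mitochondrial form is needed for the ND6 mRNA, was at 154 and 118 CPM in shRPRD1B, against 175 and 169 CPM in shCtrl (-0.34 ± 0.16 SE, edgeR adjusted p = 0.685). The 12 regulators of nuclear respiratory genes had a median of 0.08, with 8 positive, and medians of 0.01 in shRPRD1B 1 and 0.12 in shRPRD1B 2. GABPA, the DNA-binding subunit of nuclear respiratory factor GABP, was at 62.2 and 82.5 CPM in shRPRD1B, against 54.0 and 59.7 CPM in shCtrl, above both controls in both libraries (0.35 ± 0.17 SE, edgeR adjusted p = 0.696).

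**Figure D5:**
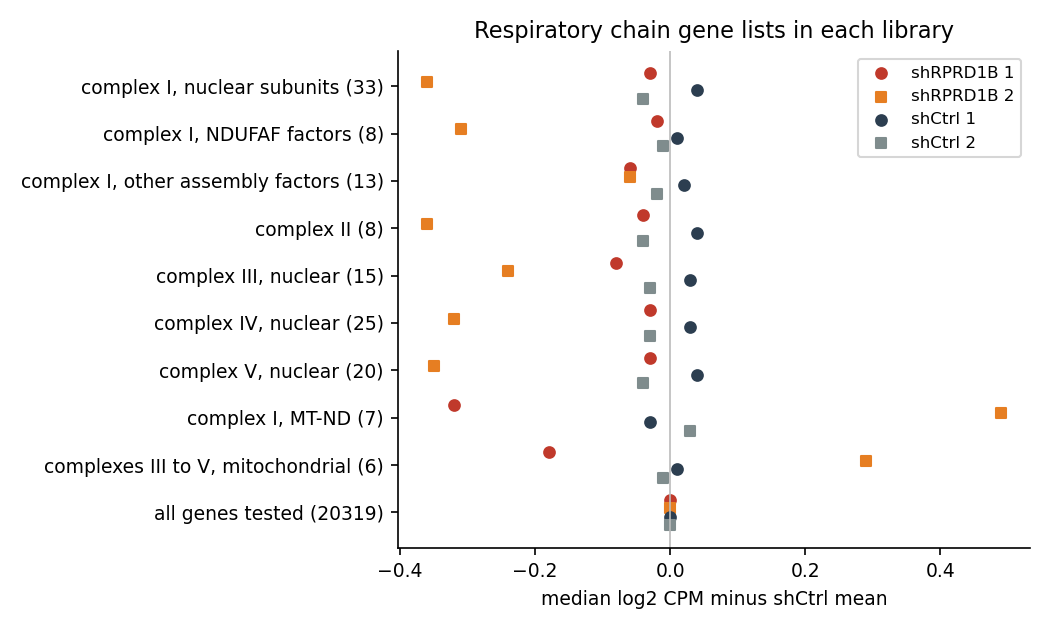
Median log2 CPM minus the shCtrl mean in each library, for nuclear and mitochondrially encoded respiratory chain lists and for all genes tested, with the number of genes in parentheses. In the nuclear complexes shRPRD1B 2 lies between -0.36 and -0.24, and in the mitochondrial lists it lies at 0.49 and 0.29 with shRPRD1B 1 at -0.32 and -0.18.

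The promoters of the nuclear subunits were read for 4 motifs of known respiratory gene regulators, in windows from 250 bases before to 50 bases after each start (RefSeq, GRCh38.p14), on both strands. Of 35 nuclear subunits, 30 had a window. The YY1 letters AANATGGC were in 12 of 30 (40%), against 11.5% of protein-coding genes tested and 7.97% of all genes in the table. Of their 13 matches, 11 were at or after the start and 10 on the gene's own strand, where the letters can include the start codon of the protein. The palindromic motif of NRF1 was in 6 of 30 (20%), against 12.3% of protein-coding genes tested. The ETS letters CCGGAAGT were in 2 of 30 subunits (6.67%), against 9.02% of those genes. The ESRR letters CAAGGTCA were in 1 of 30 (3.33%), against 1.09%. The windows of the Q module core subunits NDUFS8 and NDUFS7 are printed because they show a match of each kind, before the start and after it. The YY1 letters are in capitals.
NDUFS8 promoter (chr11:68030431-68030730, plus strand): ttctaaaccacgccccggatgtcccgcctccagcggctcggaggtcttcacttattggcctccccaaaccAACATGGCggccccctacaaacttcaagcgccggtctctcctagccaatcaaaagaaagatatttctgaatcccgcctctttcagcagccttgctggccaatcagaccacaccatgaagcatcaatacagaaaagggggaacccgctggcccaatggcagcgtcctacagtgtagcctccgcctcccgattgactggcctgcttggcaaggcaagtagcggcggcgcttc
NDUFS7 promoter (chr19:1383657-1383956, plus strand): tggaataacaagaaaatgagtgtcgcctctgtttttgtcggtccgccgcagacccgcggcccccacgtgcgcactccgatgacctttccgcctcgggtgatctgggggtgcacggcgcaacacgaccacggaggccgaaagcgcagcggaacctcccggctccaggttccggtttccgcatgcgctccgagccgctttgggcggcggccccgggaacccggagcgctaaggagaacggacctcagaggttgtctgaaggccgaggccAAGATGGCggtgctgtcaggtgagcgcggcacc
A match describes these letters in these windows and says nothing of binding.

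Which complex I genes passed the test depended on which knockdown library was kept. Without shRPRD1B 1, edgeR called 35 of 51 fitted members, where 29.1% of all 21448 genes were called. These were 6 MT-ND mRNAs higher (14.6% of all genes) and 29 members lower (14.4% of all genes). The lower ones included 23 of 34 nuclear subunits and 4 of 8 assembly factors. Without shRPRD1B 2 it called 9 of 50 members, where 10.4% of all 21458 genes were called. All 9 were lower (4.47% of all genes) and 0 were higher (5.91% of all genes): the 7 MT-ND mRNAs, NDUFB10 and NDUFAF1. The fits share their control libraries. Each of them keeps 1 knockdown library, which is assumed to vary like the controls. The adjusted p of NDUFAF1 was 0.0025 without shRPRD1B 1 and 0.000208 without shRPRD1B 2, and that of NDUFB10 was 6.24e-05 and 0.00601 in the same order.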

How the data were processed

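Poly(A) RNA of 4 HEK293T samples (2 shRPRD1B, 2 shCtrl) was sequenced. The deposited files hold raw read counts per gene, and the authors used Trim Galore, HISAT2, featureCounts and hg38 per the submitters' processing notes. Versions, annotation release, strand and multi-mapping settings: not given in the sources used here.

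Counts were fitted with edgeR 4.0.16 in R 4.3.3 (quasi-likelihood, robust, TMM, filterByExpr with a minimum count of 10, group as the only term), adjusted by Benjamini and Hochberg over 20319 genes at 0.05. CPM used TMM-scaled libraries, and log2 CPM a prior count of 2. TPM was computed from counts and GENCODE 29 transcript lengths. The alternatives were DESeq2 1.42.0, limma 3.58.1 voom, other scaling and filters, the replicate block, length and GC correction (mgcv 1.9.3), pseudogene counts added to MT-ND, each library left out, and edgeR's older fit, which was added after seeing the data. Same-numbered libraries did not deviate together (correlation 0.0134 over 20319 genes). No library was a duplicate: the chi-square of counts over genes, divided by its degrees of freedom, was 98.6 between the shRPRD1B libraries and 8.97 between the shCtrl libraries.

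The fit was tested on simulated data for shRPRD1B over shCtrl, with 200 changed genes among 20319, all of at least 5 CPM on average. It recovered 67% of 2-fold and 99% of 4-fold changes, and of its 197 calls 166 were true and the rest false. Recovery of smaller changes, or of changes in genes under 5 CPM, was not simulated. Each gene was drawn with the same dispersion in both groups, whereas the real shRPRD1B libraries stood further apart than the shCtrl libraries. The simulation therefore does not show how the fit performs at that unequal spread.

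The members, roles, lists and motifs were chosen with earlier results of these data known. Genes named were all MT-ND mRNAs, the core subunits (1 is not reported here), the 4 higher and 4 lower accessory subunits and assembly factors of smallest p, members of low counts or over 2-fold apart within a group, and up to 2 genes per list.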

Additional observations from a re-analysis of the deposited data

How the results depend on the processing

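The number of genes called over all genes was 14, and it was 40 with no low-count filter, 0 with at least 5 CPM in 2 libraries, 141 with the replicate block, 7 with edgeR's older fit, 46 with the length and GC correction, 216 with DESeq2, 0 with limma voom (1460 at an unadjusted p under 0.05) and 54 to 6235 when 1 library was left out. Complex I members called numbered 0 to 35 when 1 library was left out, 35 without shRPRD1B 1, 9 without shRPRD1B 2 and 0 without either control, and 0 under the others. Leaving out 1 library gave RPRD1B values from -0.88 to -0.50, and it was called only without a knockdown library. The medians then ran from -0.32 to 0.49 for MT-ND, from -0.40 to -0.04 for core subunits, from -0.36 to -0.03 for accessory subunits and from -0.31 to -0.01 for assembly factors, and the MT-ND minus nuclear difference (0.33) from -0.29 to 0.85. All other alternatives kept these signs, the replicate block among them (MT-ND median 0.09, difference 0.28).

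Single genes changed sign as follows, the cause not tested. With the length and GC correction NDUFA9 was -0.06, NDUFA13 0.10 and NDUFAF5 -0.06. With upper-quartile factors NDUFA7 was -0.01 and NDUFAF5 -0.03. NDUFAF5 was -0.00 without mitochondrial genes in the library size and -0.01 with at least 5 CPM. MT-ND2 was -0.01 with the replicate block and with limma voom. Without a change of sign, NDUFS1 was 0.29 with the block and 0.26 with limma voom, MT-ND1 0.21 and MT-ND5 0.09 with either. With 1 library left out the ranges were -0.36 to 0.78 (MT-ND1), -0.45 to 0.44 (MT-ND2), -0.32 to 0.65 (MT-ND4L), -0.29 to 0.54 (MT-ND4), -0.31 to 0.49 (MT-ND5), -0.22 to 0.32 (MT-ND6), -2.22 to 2.35 (NDUFS1), -0.45 to 0.11 (NDUFS8), -0.09 to 0.22 (NDUFV2), -0.03 to 0.14 (NDUFA9), -0.07 to 0.11 (NDUFA7), -0.29 to 0.19 (NDUFA13), -0.04 to 0.04 (NDUFAF5), -0.07 to 0.18 (NDUFAF6), -0.01 to 0.08 (NDUFAF7) and -0.55 to 0.01 (NDUFAF8). The 8 members under 5 CPM in every library had the fewest counts behind their values.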
